A study of Mus musculus with 4 samples.

Results

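Suprabasal keratinocytes are the cells of the epidermis and of related stratified epithelia that have left the basal layer and begun to differentiate. They were picked from single-cell RNA profiles of the entire nose of embryonic day 14.5 mice, in 2 control and 2 conditional knockout (cKO) libraries. A kept cell had at least 500 genes and at most 10% mitochondrial UMIs (unique molecular identifiers, 1 for each captured transcript). A kept cell was a member if Krt1, Krt10 and Krtdap together had at least 5 UMIs, with at least 2 of these 3 genes seen, if at least 1 of Perp, Sfn, Dsp and Dmkn was seen, and if Krt7 and Upk1b had none. The rule found 259 cells among 13739 kept cells: 92 and 31 in the control libraries and 63 and 73 in the cKO libraries. The values of these 9 genes chose the cells, so they are given as a description and are not tested.

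The control libraries are titled WT and labelled C57Bl/6J, while the series' design text describes floxed Yap and Taz alleles without Cre, so the descriptions disagree. The cKO libraries carry the Sox10-cre transgene Tg(Sox10-cre)1Wdr with floxed Yap and Taz on C57Bl/6J, and by the design text 1 of the 2 Yap alleles is floxed and both Taz alleles are. Sox10-Cre acts in the neural crest lineage, which gives rise to nasal glia and much of the facial mesenchyme, whereas keratinocytes come from the surface ectoderm. Noses were dissociated with enzymes, frozen, and profiled with the 10x 3′ v3.1 chemistry. Nothing says whether a library is 1 embryo or a pool, so p-values measure the spread between these libraries, which may be technical. The labels name sequencing providers but tie no library to one, and an effect of the provider cannot be told apart from the groups.

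Basal keratinocytes sit on the basement membrane, divide, and express Krt5 and Krt14. Under control of Notch receptors and of transcription factors such as Ovol1, Grhl3, Klf4 and Zfp750, daughter cells move up, switch to Krt1 and Krt10 and build dense desmosomes in the spinous layer. Later layers add cornified envelope proteins and barrier lipids. YAP and TAZ (gene Wwtr1), the co-activators held back by the Hippo kinases, are known to favour the basal, dividing state.

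The libraries held 2827 to 4846 barcodes and 20170229 to 35887490 UMIs, and the members of a library summed to 413617 to 1362237 UMIs. The median member had 10540.5, 8379, 9455 and 6850 UMIs in control 1, control 2, cKO 1 and cKO 2. Values below follow that order of libraries. No member shared its barcode with a member of another library. Of the 259 members, 8 had more than 40000 UMIs. They were 4 members of control 1, 3 of control 2, 1 of cKO 1 and 0 of cKO 2, and held 20.4%, 35.0%, 9.39% and 0% of the members' UMIs. The cell in cKO 1, with 62947 UMIs, also passed an endothelial gate: it had 54 UMIs of Cdh5 and 12 of Pecam1, beside 1 of Krt1, 5 of Krt10 and 0 of Krtdap. The counts of calls, the genes named between groups, the shares among keratinocytes and the tertiles below are also given without these cells where their values move.

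Krtdap, a secreted protein of differentiating keratinocytes, had the most UMIs of the rule's genes. Its members' sums came to 3059, 2248, 4624 and 4541 counts per 1000000 (CPM). Krt10 stood at 1104, 650, 2585 and 2170 CPM and its partner Krt1 at 738, 718, 1930 and 1627 CPM. Sfn, which encodes the 14-3-3 sigma adaptor, reached 1426, 1547, 1954 and 1811 CPM, and Dmkn, a secreted epidermal protein, 573, 326, 924 and 797 CPM. All 5 marker genes were thus present in the members of every library. All 3 of Krt1, Krt10 and Krtdap were seen in 188 of 259 members. Macrophages, which should lack these genes, gave a background: Krt1 was seen in 0 of 52, 0 of 53, 0 of 33 and 1 of 77, and Krt10 in 5 of 52, 8 of 53, 1 of 33 and 6 of 77, at median depths of 9213.5, 9238, 10396 and 7568 UMIs. No macrophage had more than 3 UMIs of the 3 genes together. Endothelial cells, at median depths of 15783, 14313, 19072 and 8594 UMIs, gave more background. Krt10 was seen there in 16 of 59, 8 of 26, 13 of 35 and 16 of 72, and Krt1 in 1, 0, 2 and 2 cells. In cKO 1, 1 endothelial cell that was not a member had 5 UMIs of the 3 genes and passed that part of the rule.

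Markers of other tissues were not even, and most were low. Those of periderm and of the hair placode or follicle were not. The summed level of 7 mesenchymal markers in the members was 305, 41.1, 351 and 496 CPM, against 6132, 6159, 4903 and 5823 CPM over all kept cells. Macrophage markers summed to at most 1.94 CPM, with C1qa, C1qc and Ptprc at 0. Erythroid globins stood at 1.47, 2.42, 3574 and 3.88 CPM, and the cKO 1 value was 9.88 CPM without its member of over 40000 UMIs. Endothelial markers behaved alike, at 185 CPM in cKO 1 with that cell and 4.94 CPM without it. The 4 remaining periderm markers, Krt6a, Krt17, Cldn4 and Krt4, summed to 708, 280, 1160 and 1010 CPM. In the basal keratinocytes described below they summed to 637, 614, 740 and 616 CPM. With Krt7 and Upk1b they came to 175, 88.0, 188 and 160 CPM over all kept cells. The 6 markers of the hair placode or follicle summed to 128, 162, 107 and 112 CPM in members. Over all kept cells they summed to 137, 160, 184 and 163 CPM. The part of these other transcripts in the results was not tested.

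Some genes of the cornified layer were at or near 0. Others were not: the 40 measured genes of the granular and cornified envelope list summed to 909, 411, 1664 and 1297 CPM. Flg, which encodes filaggrin, and Cdsn, the corneodesmosome protein, had 0 UMIs in all 4 libraries, which allows up to 3 UMIs in each library's sum. Ivl, the envelope precursor involucrin, had 1, 0, 1 and 0 UMIs, and Krt2 had 2, 0, 0 and 1. Lor, which encodes loricrin, the main envelope protein, was seen at 30.8, 4.84, 52.2 and 13.6 CPM, in 20, 2, 15 and 6 members. Casp14, the protease of the outer layers, had 8, 2, 14 and 11 UMIs.

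Suprabasal cells were then set against 246 basal keratinocytes of the same libraries (61, 20, 66 and 99 cells). Those cells had at least 5 UMIs and 2 genes of Krt5, Krt14 and Krt15, at least 1 of Perp, Dsp, Trp63 and Col17a1, at most 1 UMI of Krt1, Krt10 and Krtdap together, and no Krt7 or Upk1b. UMIs were summed per library and layer, and edgeR's quasi-likelihood test was fitted with the library as a block. Genes of either gate were left out of the calls. Of 7935 genes tested, 1062 (13.4%) passed an adjusted p of 0.05 (Benjamini-Hochberg): 642 (8.09%) were higher in suprabasal cells and 420 (5.29%) were lower. The cells were chosen by genes of the same differentiation programme, so the direction of closely linked genes is partly set by the choice. The number of calls was 1526 of 7688 without the cells of over 40000 UMIs, 1040 of them shared, and 583 of 3178 when each cell was thinned to 3000 UMIs.

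Late keratinocyte genes were higher. Of 40 measured genes of the granular and cornified envelope list 9 passed the filter on low counts, and all 9 were higher, with a median log2 difference of 4.73 against 0.00 over all genes; a gene near 0 in basal cells passes that filter only if suprabasal cells have it. Krt77, a type II keratin, stood at 139, 29.0, 307 and 136 CPM in suprabasal cells and at 0 in every basal sum, at least 131-fold higher against a floor of 3 UMIs over the 4 basal sums. Sprr1a, a small proline-rich envelope precursor, was seen at 63.1, 19.3, 73.1 and 85.3 CPM and at 0 in basal cells, at least 51.4-fold higher. Tgm3, a transglutaminase that crosslinks the envelope, reached 20.6, 19.3, 65.7 and 46.5 CPM against 0, at least 28.6-fold. Fam25c was also at 0 in basal cells and at 81.5, 89.5, 197 and 165 CPM above them. For each of these genes the lowest suprabasal library lay above all basal ones, and control 2, the smallest sum, gave the lowest value of Krt77 and Sprr1a.

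Promoters of 3 suprabasal genes, the rule's Krtdap, the spinous gene Sbsn and the late gene Sprr1a, are shown because their last 150 bases before the RefSeq start (GRCm38.p6) hold the AP-1 motif TGANTCA, set in capitals. AP-1 is the Fos and Jun dimer, and its genes are described further on. Krtdap lies on the plus strand, window chr7:30787755-30787904, and Sbsn, also plus, at chr7:30751321-30751470. Sprr1a is on the minus strand, window chr3:92485882-92486031. The motif starts 81 bases before the start of Krtdap, 119 before that of Sbsn, and 146 and 116 before that of Sprr1a.
Krtdap: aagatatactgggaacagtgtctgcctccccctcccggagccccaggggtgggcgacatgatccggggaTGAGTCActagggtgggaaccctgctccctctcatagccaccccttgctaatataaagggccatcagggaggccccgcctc
Sbsn: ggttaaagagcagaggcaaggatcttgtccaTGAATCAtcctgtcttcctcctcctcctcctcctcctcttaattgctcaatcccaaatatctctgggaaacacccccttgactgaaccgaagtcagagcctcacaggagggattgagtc
Sprr1a: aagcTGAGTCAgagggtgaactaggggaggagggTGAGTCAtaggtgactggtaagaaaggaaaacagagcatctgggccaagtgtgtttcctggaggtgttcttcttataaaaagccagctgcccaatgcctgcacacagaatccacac
Searched on both strands, TGANTCA occurred in 4.24% of 32851 promoter windows of this length. Counted by gene, with any window of the gene, it occurred in 4.96% of 27025 genes. Among genes tested between the layers with a window it occurred in 2.94%, among those called higher in 6.49% (32 of 493) and among those called lower in 3.41% (11 of 323). A match is a description of letters and not a binding site. The 3 genes were chosen after their values and windows had been seen.

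Barrier lipid genes were higher too. Of 11 tested, 7 were higher and 0 lower, with a median of 1.78, and Abca12, Elovl4 and Cers3 are also among the 9 genes of the late list. Abca12, the transporter that loads lipids into lamellar granules, had 112, 48.4, 198 and 190 CPM in suprabasal cells and 0, 0, 1.23 and 2.75 CPM in basal cells, a ratio of 111 (37.7 to 540, counting interval) from 403 against 3 UMIs. Elovl4, which makes very long fatty acids, stood at 126, 70.1, 193 and 215 CPM against 5.61, 15.7, 7.40 and 11, a log2 difference of 4.28 ± 0.27 (SE). Cers3, the ceramide synthase that uses them, differed by 2.42 ± 0.25 and Acsl1, an acyl-CoA synthetase, by 2.86 ± 0.23. Fabp5, the epidermal fatty acid binding protein, was abundant in both layers, at 4646, 3126, 4633 and 5138 CPM against 1544, 1206, 1308 and 1352. Each of these genes was higher in suprabasal cells in 4 of 4 libraries.

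Spinous and desmosome genes behaved alike. All 9 tested spinous genes outside the rule were higher (median 3.01), as were 10 of 11 desmosome genes (median 2.46), and Dsg1a and Dsg1b stand in both lists. Dsg1a, the desmosomal cadherin of differentiating layers, was at 86.6, 79.8, 184 and 182 CPM against 4.21, 10.5, 6.16 and 0 (5.10 ± 0.39). Ppl and Evpl, the plakin linkers periplakin and envoplakin, differed by 3.51 ± 0.23 and 3.56 ± 0.30. Sbsn, a secreted suprabasal protein, reached 143, 31.4, 269 and 240 CPM against 5.61, 15.7, 14.8 and 5.49 (4.42 ± 0.32). Lgals3, a galectin, stood at 159, 72.5, 366 and 301 CPM against 8.42, 0, 12.3 and 6.86 (4.94 ± 0.24), although it is in neither list. Dsg1a and Dsg1b are close paralogs, so reads may have been split between them.

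Junction genes went both ways. Of 14 adherens and tight junction genes, 7 were higher and 3 lower, with a median of 0.58. Ocln, a tight junction strand protein, was higher by 2.20 ± 0.31, Cldn4 by 1.69 ± 0.24 and Cldn1 by 1.67 ± 0.28. Cdh1, E-cadherin, was higher too, at 339, 256, 385 and 516 CPM against 151, 89.2, 211 and 173. Cdh3, the P-cadherin of basal cells, was lower by 1.07 ± 0.22 on the log2 scale, with 55.1, 50.8, 26.9 and 31 CPM against 84.2, 105, 86.3 and 78.2, and Ctnnb1 and Epcam were lower as well.

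Of 24 transcription factors tested, 12 were higher and 2 lower (median 0.49). Ovol1, the repressor that ends progenitor growth, stood at 126, 104, 175 and 196 CPM against 4.21, 0, 2.46 and 8.24 (5.15 ± 0.29, adjusted p 6.06e-08 in edgeR). Zfp750, an activator of terminal differentiation, stood at 112, 169, 190 and 198 CPM against 4.21, 10.5, 7.40 and 9.61 (4.50 ± 0.23). Grhl1 and Cebpa, both linked to epidermal differentiation, differed by 3.18 ± 0.29 and 2.77 ± 0.28, and Grhl3 by 2.50 ± 0.25. Klf4, a factor of the late programme, was less marked, at 220, 191, 219 and 217 CPM against 125, 89.2, 86.3 and 102. Prdm1 and Lef1 were the 2 lower genes: Prdm1, a repressor, was at 10.3, 14.5, 23.9 and 29.1 CPM against 30.9, 21.0, 71.5 and 82.4, and Lef1 is the Wnt effector of hair placodes. For Ovol1, Zfp750 and Klf4 every suprabasal value lay above every basal one, while Prdm1 and Lef1 overlapped.

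Most Notch genes tested were higher. Of 9 tested, 6 were higher, 1 was lower and 2 did not pass (median 0.89). Notch3, a receptor and itself a Notch target, stood at 82.2, 53.2, 116 and 151 CPM against 8.42, 0, 8.63 and 13.7 (3.59 ± 0.27). Notch1, the main epidermal receptor, was at 204, 239, 209 and 308 CPM against 75.7, 94.4, 69.0 and 81.0 (1.64 ± 0.15). The ligand Jag1 was at 101, 147, 158 and 167 CPM against 56.1, 57.7, 43.1 and 46.7 (1.52 ± 0.20). Nrarp, a feedback target, differed by 2.66 ± 0.24, and the target Hes1 was at 567, 783, 604 and 708 CPM against 485, 435, 314 and 254. The ligand Jag2 went the other way, at 22.0, 14.5, 11.9 and 9.70 CPM against 44.9, 31.5, 41.9 and 43.9. Receptors, Jag1 and 2 targets were thus higher above the basal layer, and Jag2 was lower, in 4 of 4 libraries.

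Hspb1, the small heat shock protein HSP27 of differentiating keratinocytes, had one of the most even differences. It stood at 1628, 2132, 2307 and 2689 CPM in suprabasal cells and at 96.8, 152, 174 and 231 CPM in basal cells, a log2 difference of 3.80 ± 0.11 (adjusted p 8.45e-11 in edgeR). The other chaperones did not share it: of 13 heat shock genes, 4 were higher and 3 lower, with a median of -0.01. Dnajb1, an HSP40 co-chaperone, differed by 1.52 ± 0.16, Hspa1b by 1.01 ± 0.16 and Hspa1a by 0.59 ± 0.15, while Hspa8, Hsp90aa1 and Hspe1 were lower. Immediate early genes were higher in 11 of 18 and lower in 0 (median 0.60). Zfp36, which destabilises inflammatory mRNAs, was at 258, 251, 415 and 366 CPM against 95.4, 94.4, 83.8 and 102, and Jun at 875, 1037, 1109 and 1324 CPM against 673, 467, 518 and 754. Such genes also respond to tissue dissociation, whose part was not tested.

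Basal identity was lower. Of 13 basal genes outside the gates 0 were higher and 6 lower (median -0.71): Cdh3, Cxcl14, Fermt1, Itga3, Itga6 and Itgb1. Cxcl14, a chemokine of the basal layer, fell to 611, 684, 449 and 374 CPM from 1504, 928, 2423 and 2563 (-1.73 ± 0.27). Itga3, a laminin-binding integrin subunit, differed by -1.35 ± 0.38 and Fermt1, which activates integrins, by -0.94 ± 0.22. Outside the lists, Cbr2, a carbonyl reductase known from airway epithelium, was at 3.67, 2.42, 1.49 and 3.88 CPM against 42.1, 52.5, 91.2 and 53.5 (-4.12 ± 0.37). Dapl1 followed at 43.3, 26.6, 11.9 and 5.82 CPM against 143, 126, 112 and 124 (-2.44 ± 0.29). The simple-epithelium keratins Krt8 and Krt18 were lower by 1.98 ± 0.30 and 1.92 ± 0.29 on the log2 scale, and Krt19 was lower too. Basal cells here include any stratified or transitional epithelium with Krt5, Krt14 or Krt15.

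Yap1 did not part the layers and Wwtr1 passed only in some settings, but some of their known targets did part them. Yap1 stood at 91.8, 102, 109 and 105 CPM against 105, 121, 93.7 and 111, and Wwtr1 at 64.6, 45.9, 101 and 62.0 CPM against 57.5, 26.2, 19.7 and 48. No gene of the 6 tested of YAP, TAZ and TEAD, nor of 11 Hippo genes, passed in this edgeR fit. At an unadjusted p under 0.05 there were 2 (Tead2 and Wwtr1) and 1 (Wwc1), and DESeq2 called none. Wwtr1 lay higher in suprabasal cells in every library, by 0.35 to 1.28 on the log2 scale with 1 library left out. In edgeR Wwtr1 passed without the cells of over 40000 UMIs, without control 1 and with no low-count filter. Of 16 targets tested, 0 were higher and 5 lower (median -0.47). Crim1, a transmembrane BMP antagonist, was at 115, 147, 86.6 and 75.6 CPM against 223, 283, 239 and 253 (-1.23 ± 0.16). Tgfb2, the growth factor, was at 56.5, 21.8, 85.1 and 38.8 CPM against 92.6, 136, 187 and 189 (-1.40 ± 0.25). Ccn1, the matricellular protein CYR61, was at 200, 230, 89.5 and 118 CPM against 276, 304, 266 and 317 (-0.92 ± 0.19), and Fjx1 and Rbms3 were lower too. In each of Crim1, Tgfb2 and Ccn1 every suprabasal value lay below every basal one.

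**Figure D1:**
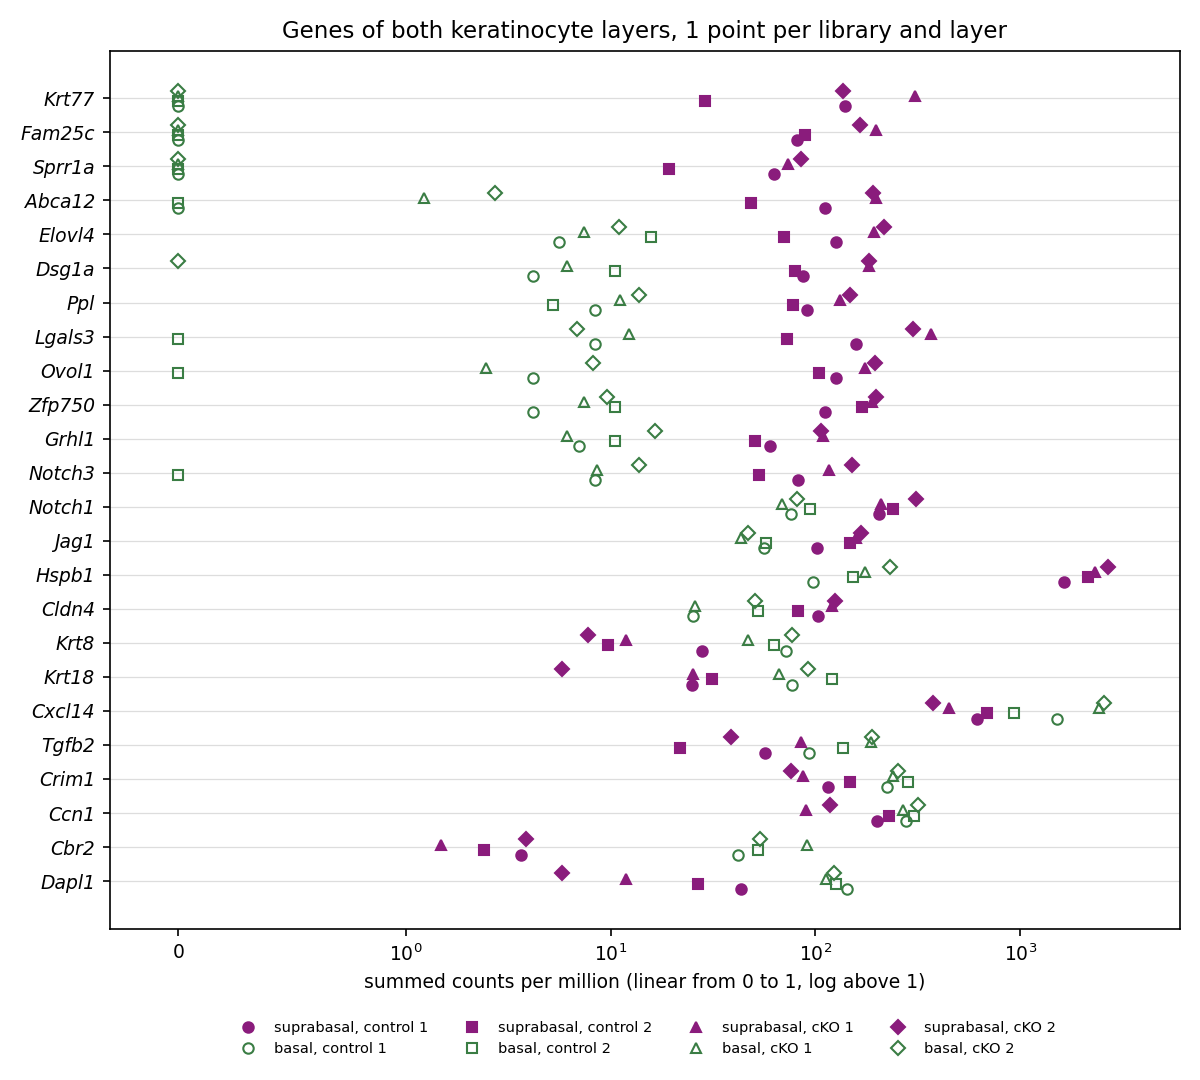
Summed counts per 1000000 UMIs (x axis, linear from 0 to 1 and log above) of 24 genes (y axis) in suprabasal (filled) and basal (open) keratinocytes, 1 point per library. Krt77, Fam25c and Sprr1a are at 0 in all 4 basal sums, Hspb1 lies between 1628 and 2689 above the basal layer, and Cbr2 and Dapl1 are lower there in every library.

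Members differed widely in how much basal keratin they kept. At least 1 UMI of Krt5, Krt14 or Krt15 was seen in 245 of 259 members (94.6%). The basal keratin share, these 3 genes over their sum with Krt1, Krt10 and Krtdap, had a median of 29.1%, 33.3%, 22.0% and 16.7% by library. Krt1, Krt10 and Krtdap together ranged from 5 to 448 UMIs a cell, with medians of 50.4, 54.5, 80.7 and 61.3 per 10000 UMIs. At the threshold, 15 members had exactly 5 of these UMIs and 20 cells that met the other conditions had 4. The 9 members at the threshold in control 1 had 1238 CPM of Krt5 and 311 of Trp63, and the 7 cells just outside had 845 and 740. The line therefore runs through cells that still carry basal genes.

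The 7 control members of over 40000 UMIs lay at that edge. They had 5 to 15 UMIs of Krt1, Krt10 and Krtdap and 66 to 206 of the basal keratins, a basal keratin share of 86.6% to 96.5%. The rule counts UMIs and not a share, so a deeper cell meets it at a lower level. No basal cell had over 40000 UMIs.

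**Figure D2:**
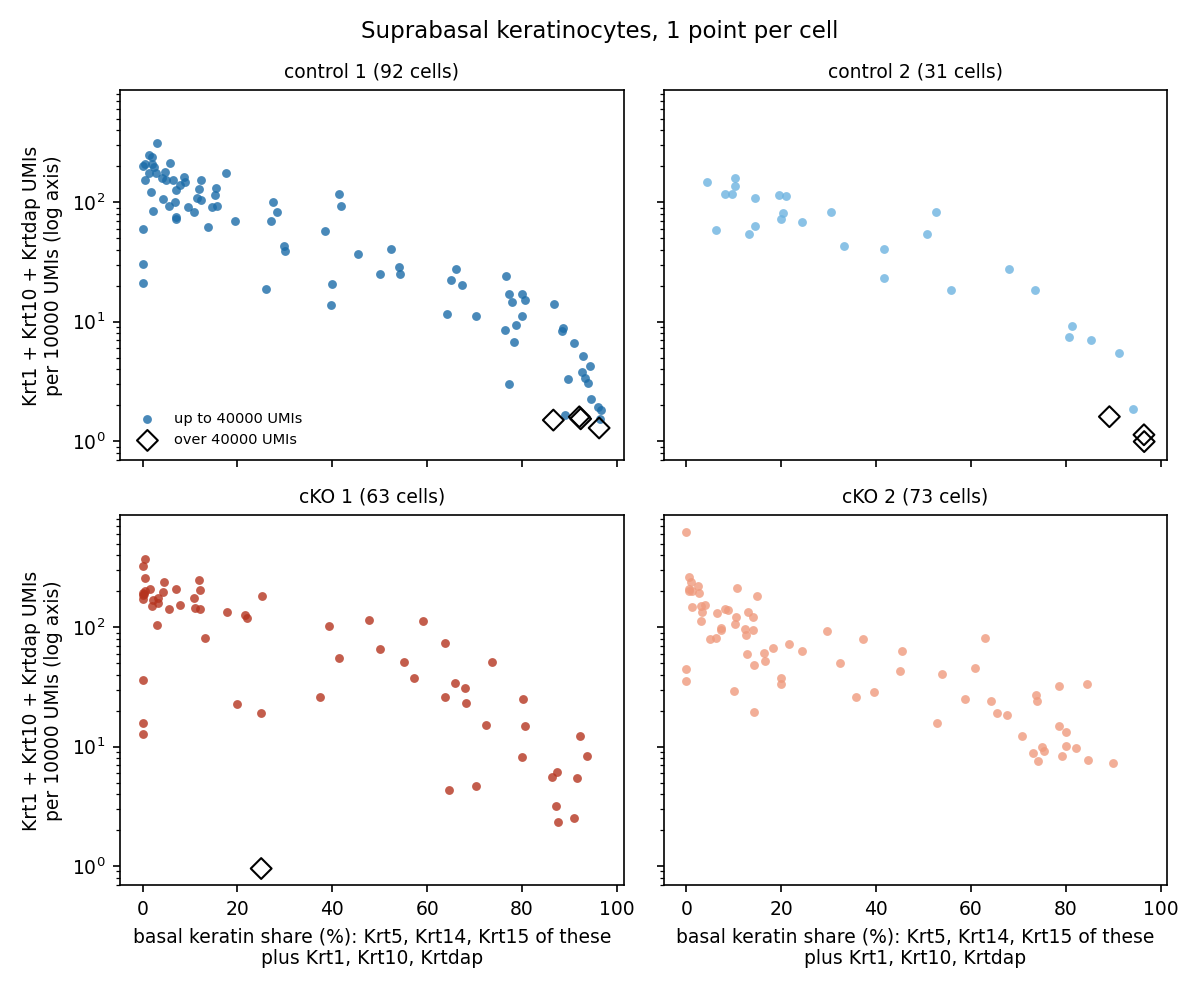
Each point is a member: the basal keratin share in percent (x axis) against UMIs of Krt1, Krt10 and Krtdap per 10000 (y axis, log) in each library, with members of over 40000 UMIs as open diamonds. The 7 such control cells sit at the lower right, with basal keratin shares of 86.6% to 96.5%, and cKO 2 has none.

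Within each library the members were put in order of the basal keratin share and divided into 3 tertiles of near-equal size, the lowest having the least basal keratin. This order uses Krt1, Krt10, Krtdap and the basal keratins, and other values follow as description. Krt77 was nearly confined to the lowest tertile: 561, 128, 972 and 358 CPM there, 57.3, 13.4, 57.1 and 73.7 CPM in the middle and 3.92, 0, 3.83 and 0 CPM in the highest. Abca12 went from 412, 210, 463 and 421 CPM in the lowest tertile to 1.31, 0, 23 and 0 CPM in the highest. The whole late list summed to 2729, 1119, 4153 and 2602 CPM in the lowest tertile and 154, 146, 172 and 377 CPM in the highest. These lowest tertiles held 31, 10, 21 and 24 cells.

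Other genes were high in the middle tertile too. Hspb1 was at 2313, 5050, 2199 and 3413 CPM in the middle tertile, against 4598, 4441, 5085 and 4331 in the lowest and 192, 486, 283 and 533 in the highest. Zfp750 stood at 252, 326, 357 and 321 CPM in the lowest, 199, 307, 205 and 176 in the middle and 22.2, 75.1, 49.8 and 111 in the highest tertile. The Notch list was nearly level between the lowest (1700, 2518, 1712 and 1703 CPM) and the middle tertile (1608, 2512, 1628 and 1916) and lower in the highest (946, 826, 853 and 1276). Hspb1, Zfp750 and the Notch genes were thus high in both less basal tertiles, whereas the late list was at its highest in 1 of them.

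The most basal tertile held the remaining basal features. Col17a1, the hemidesmosome collagen, had 0 CPM in all 4 lowest tertiles and 188, 213, 191 and 200 CPM in the highest. Igfbp5, a secreted IGF-binding protein, had 103, 0, 15.1 and 25.1 CPM in the lowest and 1001, 949, 398 and 283 CPM in the highest tertile. The YAP and TAZ target list summed to more in each tertile, from 591, 326, 448 and 698 CPM through 769, 387, 933 and 885 to 1639, 1866, 1385 and 1337 CPM. Yap1 itself showed no common order, at 59.8, 46.6, 95.7 and 132 CPM in the lowest and 103, 115, 111 and 105 CPM in the highest tertile. Proliferation genes summed to 1999, 1329, 629 and 1043 CPM in the lowest tertile, 4005, 3995, 1337 and 4048 CPM in the middle and 4090, 2712, 2951 and 3423 CPM in the highest, so that the middle lay above the highest in control 2 and cKO 2. The highest tertiles of control 1 and control 2 hold all 7 deep control cells, and their median depth was 17820 and 17539 UMIs against 11202 and 7303 in the cKO libraries. Without those cells the highest tertiles of the controls had 622 and 480 CPM of Igfbp5, 189 and 249 CPM of Col17a1, and 1585 and 1422 CPM of the YAP and TAZ target list, 265 and 1016 CPM of Hspb1, and 209 and 268 CPM of the late list. The highest tertile of control 2 then held 7 cells.

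**Figure D3:**
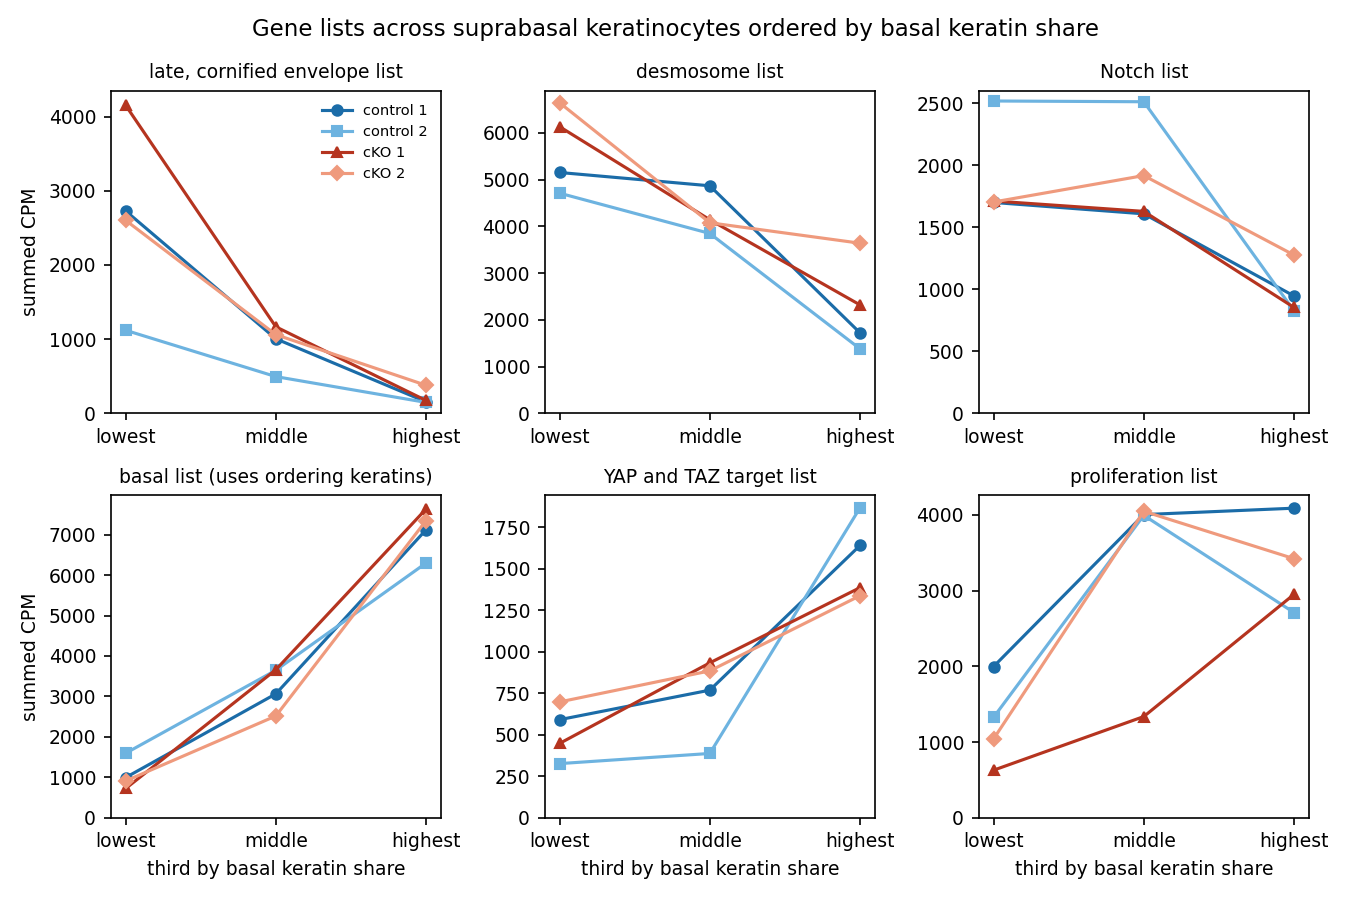
Summed CPM (y axes, from 0) of 6 gene lists in the lowest, middle and highest tertile of members by basal keratin share (x axis), 1 line per library. The late list falls from 1119 to 4153 CPM in the lowest tertile to 146 to 377 CPM in the highest, while the YAP and TAZ target list climbs in all 4 libraries.

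The study's own comparison is between noses with floxed Yap and Taz alleles and Sox10-Cre and control noses. The targeted genes come first. Yap1 in suprabasal keratinocytes was at 91.8 and 102 CPM in control and at 109 and 105 CPM in cKO libraries, a log2 difference of 0.12 ± 0.22 (adjusted p 0.905 in edgeR). Wwtr1 stood at 64.6 and 45.9 against 101 and 62.0 CPM, a difference of 0.48 ± 0.30 (adjusted p 0.615). Neither was lower in the cKO libraries. Sox10 itself had 3, 1, 0 and 0 UMIs in the members. A 3′ assay can still count a transcript that lacks a floxed exon, so these values check neither the recombination nor the labels.

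Suprabasal keratinocytes made up 2.26% (1.82 to 2.76, exact 95% binomial interval) and 1.25% (0.853 to 1.77) of kept cells in the controls and 2.10% (1.62 to 2.68) and 1.74% (1.37 to 2.18) in the cKO libraries. The difference of means was 0.17 percentage points, with an exact two-sided permutation p of 1.0. Among suprabasal plus basal keratinocytes they made up 60.1% (51.9 to 67.9) and 60.8% (46.1 to 74.2) in the controls and 48.8% (39.9 to 57.8) and 42.4% (35.0 to 50.2) in the cKO libraries. The groups did not overlap, and the difference was -14.8 points (exact permutation p 0.33, the smallest that 2 against 2 libraries can give). Without the deep cells the shares were 59.1% and 58.3% against 48.4% and 42.4%. The difference was -8.66 points when the gates were applied after thinning every cell to 3000 UMIs, and 4 libraries allow no smaller p for either version. The intervals cover counting error only, and the share among keratinocytes also moves with the number of cells that pass the basal gate.

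Cells with a UMI of Mki67 or Top2a, genes of dividing cells, were counted after thinning to 3000 UMIs. They were 20.7% (18 of 87) and 25.8% (8 of 31) of members in the controls and 10.3% (6 of 58) and 30.6% (19 of 62) in the cKO libraries. The 2 cKO libraries enclosed both controls, and the difference of -2.75 points had an exact permutation p of 1.0. The groups also overlapped after thinning to 2000 UMIs, at 17.98% and 22.58% in the controls against 8.197% and 22.54% in the cKO libraries. With a gate of 10 UMIs and thinning to 3000 UMIs they overlapped at 18.2% and 30.4% against 11.1% and 28.6%. In some other settings both cKO libraries lay below both controls. Unthinned, they came to 37.0% and 38.7% against 17.5% and 35.6%, a difference of -11.3 points. They were 26.4% and 34.8% against 7.14% and 23.5% (-15.2 points) with stricter cells (at least 1000 genes and at most 5% mitochondrial UMIs), and 24.4% and 25.8% against 11.1% and 22.2% (-8.43 points) with likely doublets removed, both after thinning. Each of these separations has the exact permutation p of 0.33, the smallest possible. Basal cells gave 40.0%, 20.0%, 18.8% and 24.7%, so the layers differed by -4.00 points (exact sign-flip permutation p 0.625). Macrophages gave 22.4%, 46.7%, 31% and 25.7% and endothelial cells 35.7%, 34.8%, 28.6% and 30.2%. How far these shares show dividing cells was not tested. Of 27 proliferation genes tested between groups in edgeR, 0 were higher and 5 lower at an unadjusted p under 0.05 (median -0.55), with no call. Of all genes tested, 5.82% were higher and 4.85% lower. Without the deep cells the list gave 0 and 6 of 27 (-0.45), beside 4.58% and 3.44%. Between layers 0 of 28 were called higher and 3 lower (-0.42), beside 8.09% and 5.29% of all genes.

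**Figure D4:**
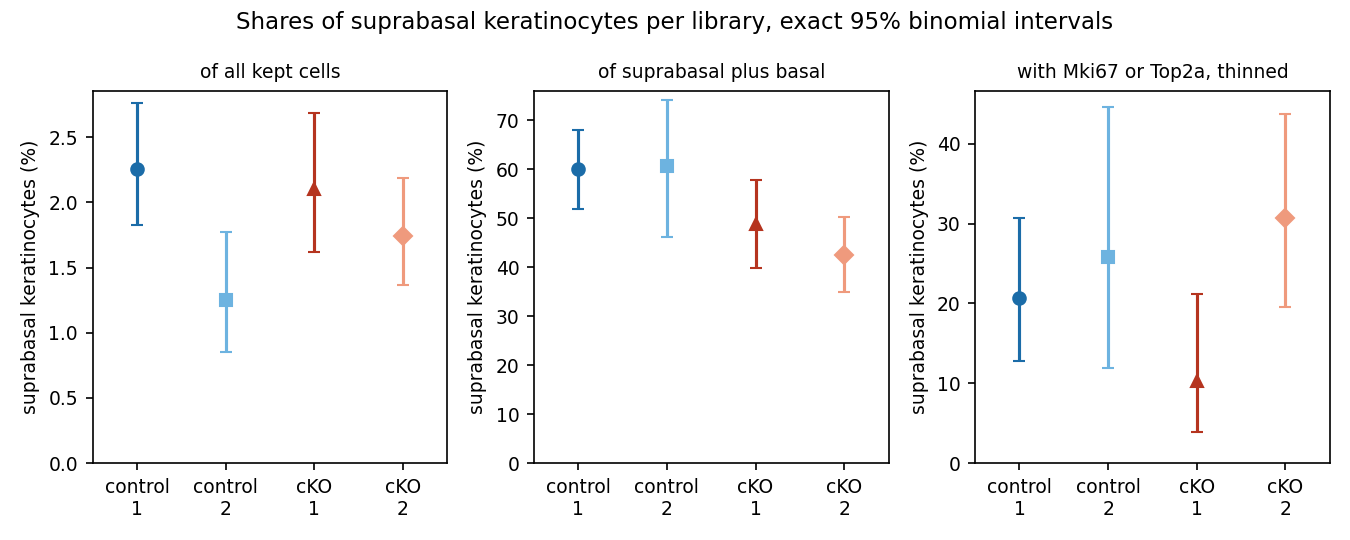
Shares of suprabasal keratinocytes in percent (y axes, from 0) in each library (x axis) of all kept cells, of suprabasal plus basal cells, and with Mki67 or Top2a after thinning; bars are exact 95% binomial intervals. In the middle panel the controls are at 60.1% and 60.8% and the cKO libraries at 48.8% and 42.4%; in the others the groups overlap.

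Across all genes, 22 of 7548 (0.291%) passed an adjusted p of 0.05 in edgeR's quasi-likelihood test between groups: 10 (0.132%) higher and 12 (0.159%) lower in the cKO libraries. At an unadjusted p under 0.05 there were 439 higher (5.82%) and 366 lower (4.85%). Without the 8 members of over 40000 UMIs, a setting chosen after seeing the data, 3 of 7213 genes passed: Hspa1a, Hspa1b and Dlg2. Without control 1, 100 genes passed and 9 of the 22 calls remained; without the cell that also passed the endothelial gate, 48 genes passed. With 2 libraries a group, the number of calls moved widely with the cells that entered, and the genes are therefore described with and without the deep cells.

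Hspa1a and Hspa1b, the stress-inducible HSP70 genes, rose. Hspa1a (chromosome 17, 34969190 to 34972156, minus strand) stood at 53.6 and 12.1 CPM in control libraries against 296 and 213 CPM in cKO libraries, a log2 change of 2.64 ± 0.36 (adjusted p 0.0211 in edgeR). Without the deep cells it stood at 63.6 and 18.6 against 321 and 213 CPM, a change of 2.32. Hspa1b stood at 98.4 and 48.4 against 412 and 271 CPM (2.07 ± 0.29), and at 112 and 63.2 against 448 and 271 CPM without those cells (1.83). Neither pair of groups overlapped. For any gene such a separation of 2 against 2 libraries has an exact permutation p of 0.33, so it is given as a description. After thinning to 3000 UMIs, Hspa1a was seen in 14.9% and 6.45% of control members and in 39.7% and 32.3% of cKO members. In the test of 13 heat shock genes these 2 passed and the median change was 0.09, and Hspb1 did not pass. DESeq2 gave Hspa1a an adjusted p of 0.092. In edgeR Hspa1a, Hspa1b and Dlg2 lost their calls with a gate of 10 UMIs (2.37, 1.84 and 1.47), after thinning (2.60, 1.52 and 1.03) and among members with fewer basal than spinous keratin UMIs (1.81, 1.44 and 1.24), where no gene passed, and Dlg2 also with stricter cells.

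Basal keratinocytes showed a change of like size. In basal keratinocytes Hspa1a stood at 35.1 and 10.5 CPM in control libraries against 219 and 133 CPM in cKO libraries. The layers' changes differed by -0.04 ± 0.35 on the log2 scale (interaction adjusted p 1 in edgeR). For Hspa1b, with 44.9, 15.7, 185 and 180 CPM in basal cells, they differed by -0.32 ± 0.36 (adjusted p 0.932). In macrophages after thinning, Hspa1a was seen in 59.2%, 22.2%, 79.3% and 54.1%, where control 1 lay above cKO 2. In endothelial cells after thinning, it was seen in 5.36%, 0%, 17.1% and 20.6%, and Hspa1b in 8.93%, 0%, 17.1% and 12.7%, with both cKO libraries above both controls. These genes are also induced by handling, whose part was not tested.

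The promoters of the heat shock genes are shown because the heat shock element GAANNTTC, set in capitals, stands in each. Those of the inducible pair are also nearly the same. Windows are the 150 bases before the RefSeq start in GRCm38.p6: Hspb1 plus strand, chr5:135887769-135887918; Hspa1a minus strand, chr17:34972157-34972306; Hspa1b minus strand, chr17:34959239-34959388.
Hspb1: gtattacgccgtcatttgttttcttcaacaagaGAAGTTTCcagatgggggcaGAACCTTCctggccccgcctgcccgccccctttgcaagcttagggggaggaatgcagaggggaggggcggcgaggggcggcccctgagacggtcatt
Hspa1a: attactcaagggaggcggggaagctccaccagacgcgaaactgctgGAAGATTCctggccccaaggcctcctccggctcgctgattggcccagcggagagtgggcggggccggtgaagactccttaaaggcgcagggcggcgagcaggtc
Hspa1b: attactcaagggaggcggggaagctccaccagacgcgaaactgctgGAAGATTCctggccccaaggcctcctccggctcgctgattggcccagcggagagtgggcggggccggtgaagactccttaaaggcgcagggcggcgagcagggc
The windows of Hspa1a and Hspa1b have 149 of 150 bases in common. They lie before the start and do not show how reads of the 2 near-identical genes were assigned. Such reads may have been split between the genes or left out, which was not tested. Searched on both strands, GAANNTTC occurred in 3.95% of all windows. Counted by gene, with any window of the gene, it occurred in 4.63% of 27025 genes. Among genes tested between the layers it occurred in 3.02%, among those called higher in 5.07% and among those called lower in 4.33%. Hspb1 holds it 117 and 97 bases before its start, and the pair 104 bases before theirs.

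Dlg2, which encodes a synaptic scaffold protein of the MAGUK family, also passed without the deep cells. It stood at 50.7 and 36.3 CPM in control libraries against 136 and 175 CPM in cKO libraries (1.71 ± 0.24, adjusted p 0.0211 in edgeR) and was seen in 32, 13, 39 and 39 members. Without the deep cells the controls had 50.7 and 52.1 CPM, and the change was 1.53. The tertiles showed it in all parts of the layer, at 76.4, 46.6, 186 and 239 CPM in the lowest and 23.5, 31.6, 91.9 and 99.9 CPM in the highest. In basal cells its change was -1.14, and the difference between layers was 2.84 ± 0.52 with an adjusted p of 0.0632.

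Other genes rose with all members and did not pass without the deep cells. Lypd3, a GPI-anchored protein of the suprabasal layers, stood at 57.3 and 53.2 against 131 and 167 CPM (1.36 ± 0.23), and at 71.9 and 70.7 against 145 and 167 CPM without them. Smad1, the BMP signal transducer, stood at 66.1 and 67.7 against 155 and 159 CPM (1.19 ± 0.21), and at 70.1 and 63.2 against 150 and 159 CPM without them. Robo2, a Slit receptor, rose by 1.38 ± 0.23 and Nipal2 by 1.31 ± 0.24, and without them Robo2 stood at 228 and 257 against 357 and 652 CPM and Nipal2 at 65.4 and 44.6 against 130 and 140 CPM. Ly6d also passed (1.54 ± 0.26), but all 19 of its UMIs in control 2 came from 1 cell. Mef2c rested on 1 cell with 70 of its 80 UMIs in cKO 1, the one that also passed the endothelial gate, and Hpse2 on 1, 1, 4 and 6 cells. For Lypd3, Smad1, Robo2 and Nipal2 the groups stayed apart in both versions. By itself such a separation has an exact permutation p of 0.33, and the share of all genes that separate is not given here.

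The deep control cells held much of the UMIs of the genes that fell. Igfbp5, with the lowest p, fell from 598 and 583 CPM in the controls to 197 and 138 CPM in the cKO libraries (-1.85 ± 0.21, adjusted p 0.0114 in edgeR). The deep cells held 56.7% and 78.0% of its control UMIs. Without them the controls had 325 and 197 CPM against 216 and 138, the groups overlapped and the change was -0.70. Hmga2, a chromatin protein of growing embryonic tissue, went from 126 and 111 to 40.3 and 29.1 CPM, and the controls had 66.4 and 29.8 CPM without those cells. Sox2, a transcription factor of placodes and sensory epithelium, went from 60.2 and 50.8 to 11.9 and 7.76 CPM, and 85.7% of its UMIs in control 2 were in those cells. Pdgfa, the growth factor, went from 178 and 172 to 73.1 and 44.6 CPM, and kept 154 and 115 CPM in the controls without them. Dst, which links keratins to hemidesmosomes, was the basal list's only call: 244 and 193 against 94.0 and 40.7 CPM, with 51.7% and 63.8% of control UMIs in deep cells. Clstn2, Nkain3, Lypd6, Cdh13, Slc8a1, Cald1 and Gpc3 made up the rest of the 12. Without the deep cells none of the 12 passed: 7 were tested, with Slc8a1 at -2.52 and Pdgfa at -1.28, and 5 were under the filter on low counts.

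**Figure D5:**
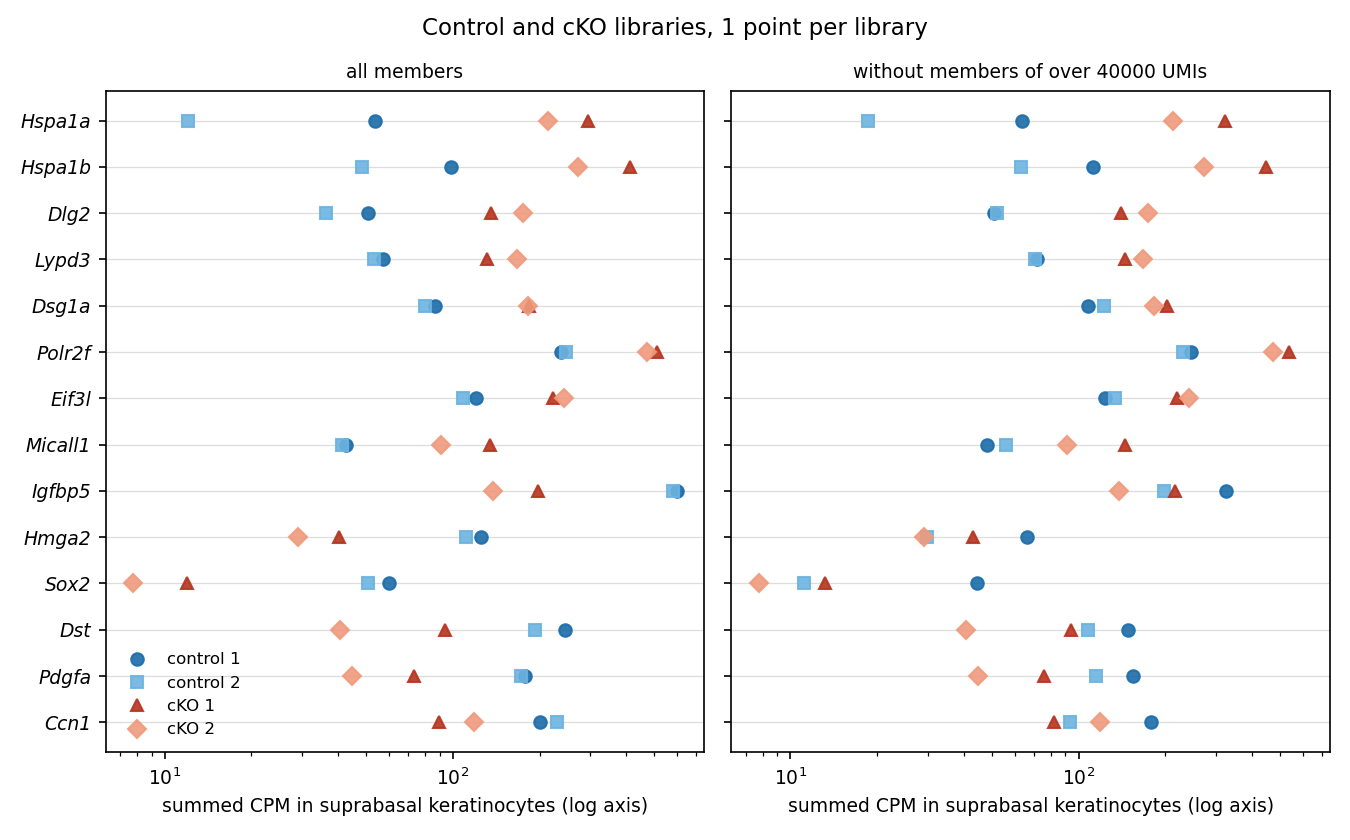
Summed CPM (x axes, log) of 14 genes (y axis) in suprabasal keratinocytes of each library, with all members (left) and without members of over 40000 UMIs (right). The cKO libraries lie above both controls for Hspa1a, Hspa1b, Dlg2, Polr2f, Eif3l and Micall1 in both panels, while Igfbp5 goes from 583 and 598 CPM in the controls to 197 and 325.

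Between groups, the median of each differentiation list lay above 0 and that of the basal list below 0 with all members. Of 9 spinous genes outside the rule, 7 were higher in the cKO libraries at an unadjusted p under 0.05 and 0 lower (median 1.08, against -0.01 over all genes), with Lypd3 and Ly6d called. Desmosome genes gave 10 and 0 of 11 (median 0.81), late genes 8 and 0 of 11 (0.92) and lipid genes 5 and 0 of 11 (0.64), with no call. Basal genes gave 0 and 8 of 17 (-0.55), beside 5.82% higher and 4.85% lower of all 7548 genes tested. Without the deep cells the counts were 6 of 9, 4 of 11, 5 of 11 and 5 of 11 higher and 4 of 17 basal genes lower, beside 4.58% higher and 3.44% lower of all 7213 genes tested there. Among members with fewer basal than spinous keratin UMIs (54, 18, 39 and 49 cells) they were 2 of 9, 0 of 11, 1 of 11 and 2 of 11, with 2 basal genes higher and 1 lower of 11, beside 3.19% higher and 2.65% lower of all 5555 genes. Abca12, Elovl4 and Cers3 count in both the late and the lipid list, and Dsg1a and Dsg1b in both the spinous and the desmosome list. Without the cell that also passed the endothelial gate, where 48 of 7279 genes (0.659%) were called, 3 spinous genes (Lypd3, Ly6d and Dsg1a) and 2 desmosome genes (Dsc2 and Dsg1a) were called higher.

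The rule's own genes carry no test. Krt1 differed between groups by 1.24, Krt10 by 1.39 and Krtdap by 0.74 on the log2 scale with all members. They differed by 0.81, 1.00 and 0.32 without the deep cells, and by 0.45, 0.67 and -0.01 among members with fewer basal keratin UMIs. In the lowest tertile, Krt10 stood at 3396 and 2250 against 5900 and 5047 CPM and Krt1 at 2424 and 2483 against 3731 and 3413 CPM. Krt5 (-0.05 ± 0.18) and Krt14 (0.10 ± 0.19) did not pass. Dsg1a, with 86.6 and 79.8 against 184 and 182 CPM, had an adjusted p of 0.0543 in edgeR, and Trp63, the master regulator of stratified epithelium, one of 0.38.

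Neighbours of Sox10 on chromosome 15 were near the threshold. Polr2f, an RNA polymerase subunit (79141009 to 79151774), stood at 237 and 247 CPM in control libraries against 509 and 471 CPM in cKO libraries (0.98 ± 0.18, adjusted p 0.0529 in edgeR). Eif3l, a translation initiation factor subunit (79075179 to 79094405), stood at 120 and 109 against 222 and 242 CPM (0.96 ± 0.20, adjusted p 0.0666). Micall1, an endosomal regulator (79108898 to 79136900), stood at 42.6 and 41.1 against 134 and 91.1 CPM (1.40 ± 0.28, adjusted p 0.0576). Without the cell that also passed the endothelial gate all 3 were called (adjusted p 0.0244, 0.0468 and 0.0355 in edgeR), where 0.659% of all genes tested were called. For all 3 the groups stayed apart without the deep cells, a separation with an exact permutation p of 0.33. Of 7 genes of the list, 3 were higher and 0 lower at an unadjusted p under 0.05, with and without the deep cells. Of all genes tested, 5.82% with and 4.58% without those cells were higher at that p. Gcat, the neighbour at 79030874 to 79038353, and Micall1 were also higher in suprabasal than in basal cells, by 0.70 ± 0.17 and 1.44 ± 0.24. Coordinates are those of GRCm38. The Sox10-cre transgene holds Sox10 sequence and is present only in the cKO libraries, and its part was not tested.

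Targets of YAP and TAZ had no call between groups with all members. Without the cell that also passed the endothelial gate 2 of 15 were called lower, Ccn1 (-1.14) and Rbms3 (-1.35). Of all genes tested there, 0.659% were called. With all members, of 15 tested, 1 was higher and 5 lower at an unadjusted p under 0.05, with a median of -0.20. Of all genes tested, 5.82% were higher and 4.85% lower at that p. Ccn1 stood at 200 and 230 against 89.5 and 118 CPM (-1.09 ± 0.22, adjusted p 0.0576 in edgeR), and at 179 and 93.0 against 82.4 and 118 CPM without the deep cells. Rbms3, an RNA-binding protein, stood at 208 and 343 against 104 and 134 CPM, and at 176 and 130 against 85.7 and 134 CPM without them. For both genes the groups overlapped there. Of 6 YAP, TAZ and TEAD genes and 11 Hippo genes, 0 reached an unadjusted p under 0.05 in edgeR, and DESeq2 made no call in either list. Notch3 (82.2 and 53.2 against 116 and 151 CPM) and Rbpj, the Notch transcription factor (66.8 and 74.9 against 35.8 and 34.9 CPM), had adjusted p-values of 0.182 and 0.165.

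The change between groups itself differed between the layers for 13 of 9019 genes (0.144%) by the interaction test in edgeR. Igfbp5 was 1 of them: it fell in suprabasal cells and stood at 732, 477, 638 and 689 CPM in basal cells, a difference between the changes of -1.93 ± 0.26 (adjusted p 0.0102). Cxcl14 stood at 611, 684, 449 and 374 CPM in suprabasal and 1504, 928, 2423 and 2563 CPM in basal cells, a difference of -1.67 ± 0.24. Without the deep cells the difference for Igfbp5 was -0.74 and for Cxcl14 -1.50. Without cKO 1, 0 genes passed.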

How the data were processed

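Whole noses of embryonic day 14.5 mice were profiled in 2 control and 2 cKO libraries with 10x 3′ v3.1 chemistry. The authors deposited raw UMI count matrices, 1 per library. The file headers name Cell Ranger 8.0.1, while the submitters' processing notes name Cell Ranger 4, Seurat 4.3.0 and the build mm10. A barcode needed at least 500 genes and no more than 10% mitochondrial UMIs, and members were taken by the rule given above. The members, the gene lists and the tests were chosen with earlier results of these data known, and genes were named by a rule. Between groups it took up to 10 called genes of largest change in each direction, fixed marker and target genes, and up to 4 genes per list with an unadjusted p under 0.05; between layers up to 12 called genes in each direction with at least 50 CPM in the higher layer, and up to 4 called genes per list. Cald1, Gpc3, Casp14, Cdsn, Krt2, Col17a1, Ctnnb1, Epcam, Fabp5, Grhl3, Hes1, Jag2, Hsp90aa1, Hspa8, Itga6, Itgb1, Klf4, Lef1, Prdm1, Tead2 and Wwc1 fall outside it and were chosen after their values were seen. UMIs were summed per library and layer and tested with edgeR 4.0.16 (TMM scaling, low-count filter, quasi-likelihood, Benjamini-Hochberg adjustment over all genes tested) in R 4.3.3. Genes of the gates were left out of calls. The comparison of layers had the library as a block. DESeq2 1.42.0 was an alternative, beside DESeq2 size factors, no low-count filter, a gate of 10 UMIs, stricter cells (1000 genes, 5%), doublet removal, thinning and leaving out libraries. A doublet caller (Scrublet, scanpy 1.11.5) set its own cut at 1, 0, 2 and 1 cells and so had not worked; the alternative removed the highest scores at 0.8% per 1000 barcodes. Shares were compared by exact permutation tests over libraries with scipy 1.17.1, with exact binomial intervals. On simulated counts of 7555 genes, 199 of 200 changed genes were recovered for cKO against control, with 10 unchanged genes called, and 198 of 200 for the layers, with 5. The median absolute log2 change was 1.98 and 2.01 in these simulations, so the recovery of smaller changes is not shown. Of 32285 features 32158 matched the annotation (GENCODE M21, GRCm38). Further samples that the protocols speak of were not analysed here.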

Additional observations from a re-analysis of the deposited data

Results flagged for a closer look

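For 13 genes the test of the difference itself found that the change between cKO and control libraries was not the same in suprabasal and basal keratinocytes (log2 change in suprabasal minus that in basal cells, edgeR, adjusted p under 0.05). The difference was 5.33 for Epha3, 5.27 for Mef2c, 5.03 for Ly6d, 4.15 for Zeb2, 3.6 for Col3a1, 3.55 for Pax3, 2.07 for Lgals1 and 0.91 for Gm42418. It was -3.56 for Nkain3, -3.22 for Dab1, -1.96 for Dcn, -1.93 for Igfbp5 and -1.67 for Cxcl14. Ly6d stood at 79.3, 45.9, 167 and 239 CPM in suprabasal cells of control 1, control 2, cKO 1 and cKO 2, and at 53.3, 5.25, 2.47 and 4.12 CPM in basal cells. Col3a1, Dcn and Lgals1 are known as mesenchymal genes, and the mesenchymal marker list summed to 305, 41.1, 351 and 496 CPM in suprabasal and 662, 36.7, 190 and 200 CPM in basal cells; its part in these values was not tested. Control 1 held most of the basal UMIs of Col3a1 (118, 0, 9 and 24), Zeb2 (70, 3, 12 and 7) and Ly6d (38, 1, 2 and 3). The same held for Epha3 (38, 2, 8 and 4), Mef2c (26, 1, 4 and 8) and Pax3 (53, 10, 6 and 21). Epha3 had 5, 1, 17 and 15 UMIs in suprabasal cells. Most of the 80 suprabasal UMIs of Mef2c in cKO 1 came from the cell that also passed the endothelial gate. Without that cell, 12 of the 13 calls remained among 37. Without control 1, 7 of the 13 calls remained among 30, and without cKO 1, 0 genes passed (364 at an unadjusted p under 0.05).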

How the results depend on the processing

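The comparison of groups had 2 libraries in each and 413617 UMIs in the smallest sum. Against 22 genes changed between groups, 0 passed in edgeR among members with fewer basal than spinous keratin UMIs (324 at an unadjusted p under 0.05), 0 after thinning to 3000 UMIs (266), 0 with a gate of 10 UMIs (410), 3 without members of over 40000 UMIs, 6 with stricter cells, 48 without the member of a second gate, 155 with likely doublets removed and 282 with no low-count filter. Leaving out 1 library gave 76 to 130. DESeq2 called 33. The 1062 genes between layers became 583 with thinning, 1625 with a gate of 10 UMIs and 569 to 1065 without 1 library. The 13 genes of the interaction became 6, 0 (393 at an unadjusted p under 0.05) and 107 with thinning, a gate of 10 UMIs and no filter, 37 without the member of a second gate, and 0 to 65 without 1 library. The settings on depth and on the second gate were chosen after seeing the data.

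The deviations of same-numbered libraries had a correlation of 0.0483 over 7555 genes. With 2 libraries a group this is 1 value for both pairs, so it cannot decide whether the numbers pair the libraries. With a replicate block 255 genes passed between groups, and the share among suprabasal plus basal cells differed by -14.8 points as before.

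Some values changed sign. The share of kept cells differed by -0.0051 points with stricter cells and by -0.34 to 0.67 without 1 library, the share with Mki67 or Top2a between groups by -12.9 to 7.40 and between layers by -7.30 to 1.11. Between groups 2 genes called lower changed sign: Cald1 (-1.16) was at 0.46 among members with fewer basal keratin UMIs, and Gpc3 (-1.09) at 0.0213 with thinning. Of genes not called, Wwtr1 was at -0.15 with thinning, and Yap1 ran from -0.0048 to 0.194 without 1 library. Between layers Yap1 was at 0.0232 with thinning, and at 0.0244 and 0.0036 without control 1 and control 2. The interaction of Hspa1a was 0.21 with doublets removed, 0.0263 without the member of a second gate, 0.41 with thinning, 0.0179 in DESeq2, and 0.40 and 0.09 without control 1 and cKO 1. The causes were not tested.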
